A study of Mus musculus with 6 samples.

Results

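Hox genes encode homeodomain transcription factors and lie in 4 clusters in the mouse, Hoxa, Hoxb, Hoxc and Hoxd, in which genes of the same number (paralogs) descend from 1 ancestral gene. Within a cluster the genes are transcribed in 1 direction, and those with low numbers, at the 3′ end, are used toward the head of the embryo while those with high numbers, at the 5′ end, are used toward the tail. In the female reproductive tract this order is kept along the Müllerian duct, where Hoxa9 is associated with the oviduct, Hoxa10 with the uterus, Hoxa11 with the lower uterus and cervix and Hoxa13 with the upper vagina, and the genes remain in use in the adult. Chromatin regulators, above all the Polycomb and trithorax groups, hold the clusters in their repressed or active state. All protein-coding genes named Hoxa, Hoxb, Hoxc or Hoxd with a number were taken from the count table, which gave 39 of 54232 genes, and 28 of them were treated as measured because they had at least 10 counts in at least 3 libraries.

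RNA-seq was performed on primary oviductal muscle cells of WT mice and of mice with conditional deletion of Pbrm1 (Pbrm1 cKO), with 3 libraries per group. Pbrm1 encodes polybromo, a subunit of SWI/SNF remodelers of chromatin, and the comparison asks which genes differ in level between these cell preparations with and without the deletion. Females were 8 to 12 weeks old and were taken on day 2 of pregnancy in both groups. In the study's mice, floxed Pbrm1 was deleted by a Cre expressed from the progesterone receptor gene, so that any cell type that uses this gene may carry the deletion. The labels call the controls WT, while a legend of the study names floxed mice; no source says if the RNA of each library was that of a single animal or of several, so p-values measure the spread between these samples, which may in part be technical. Oviducts were digested, filtered and plated in serum for 4 hours and, after a change of medium, 2 more before RNA was taken.

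Libraries held 15390818 to 18947947 counts, at which 3 counts, taken as the floor of detection, correspond to 0.159 to 0.193 CPM (counts relative to library size, here adjusted by edgeR's normalization factors). Such limits cover counting error only. Pbrm1 itself had 170, 183 and 172 CPM in WT replicates 1, 2 and 3, and 43.5, 50.7 and 42.7 CPM were left in cKO (log2 fold change -1.94, SE 0.06, edgeR adjusted p = 9.1e-11), so every library stood on the side its label gives. All 10 smooth muscle markers were detected, with Acta2, the actin of smooth muscle, at 1287 ± 33.5 CPM (WT) and 1536 ± 131 CPM (cKO; mean ± SD, n = 3), but markers of other cell types were present as well. Summed over 10 markers each, WT and cKO libraries held 3619 to 3694 and 4575 to 5169 CPM for smooth muscle (7 markers called, that is past an edgeR adjusted p of 0.05), 6497 to 7208 and 9721 to 9997 CPM for fibroblasts (8 called), 343 to 352 and 598 to 635 CPM for leukocytes (10 called), 996 to 1085 and 1156 to 1289 CPM for epithelium (6 called), 373 to 396 and 317 to 329 CPM for endothelium (3 called) and 408 to 419 and 401 to 435 CPM for mesothelium (7 called). Calls higher and lower in cKO were 6 and 1 for smooth muscle, 7 and 1 for fibroblasts and 10 and 0 for leukocytes. They were 6 and 0 for epithelium, 2 and 1 for endothelium and 1 and 6 for mesothelium. Of all tested genes 43.7% were called (21.9% higher, 21.8% lower). No marker was at 0 in every library. The part of these differences in the Hox values below was not tested, and in bulk RNA fewer cells of a type cannot be told apart from less RNA per cell.

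Hox proteins bind DNA through the homeodomain, encoded by a homeobox of 180 bases, and differ most outside it. The homeoboxes of the 6 of 28 measured genes that passed the test between the groups (as 43.7% of all tested genes did) are printed to show how far the genes that changed can be told apart by sequence in a part that all members share; the capitals mark the 18 bases that encode the core of the third helix, which lies in the major groove of DNA. The sequences are taken from GENCODE M21 transcripts (GRCm38), sense strand, 5′ to 3′, and each lies within 1 exon, the last of its transcript (exon 2): Hoxa10 at chr6:52232554-52232733 and Hoxa11 at chr6:52243402-52243581, both on the minus strand, and, on the plus strand, Hoxb2 at chr11:96352985-96353164, Hoxc6 at chr15:103010754-103010933, Hoxc13 at chr15:102927210-102927389 and Hoxd8 at chr2:74706525-74706704.
Hoxa10: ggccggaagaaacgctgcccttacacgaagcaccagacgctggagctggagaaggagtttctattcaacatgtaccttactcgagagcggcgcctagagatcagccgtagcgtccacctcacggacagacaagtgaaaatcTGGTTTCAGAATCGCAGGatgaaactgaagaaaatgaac
Hoxa11: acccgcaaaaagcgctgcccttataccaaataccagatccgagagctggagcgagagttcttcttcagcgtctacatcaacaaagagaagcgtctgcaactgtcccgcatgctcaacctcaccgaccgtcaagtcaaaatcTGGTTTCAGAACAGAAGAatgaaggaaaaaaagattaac
Hoxb2: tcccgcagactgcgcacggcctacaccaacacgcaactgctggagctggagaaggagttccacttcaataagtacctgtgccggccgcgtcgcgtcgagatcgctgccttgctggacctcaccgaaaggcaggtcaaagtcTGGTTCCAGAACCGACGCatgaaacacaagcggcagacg
Hoxc6: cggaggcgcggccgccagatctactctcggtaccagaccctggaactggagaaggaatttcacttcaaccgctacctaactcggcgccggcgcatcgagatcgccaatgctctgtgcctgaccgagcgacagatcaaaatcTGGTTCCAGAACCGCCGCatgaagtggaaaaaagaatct
Hoxc13: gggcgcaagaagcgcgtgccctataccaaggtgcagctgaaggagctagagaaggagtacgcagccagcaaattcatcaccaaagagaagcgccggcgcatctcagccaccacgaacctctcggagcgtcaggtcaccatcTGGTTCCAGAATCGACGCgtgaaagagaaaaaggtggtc
Hoxd8: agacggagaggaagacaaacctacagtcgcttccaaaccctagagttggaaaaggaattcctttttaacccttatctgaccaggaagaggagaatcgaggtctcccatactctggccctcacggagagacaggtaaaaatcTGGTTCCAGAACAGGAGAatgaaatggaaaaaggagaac
Over the 15 pairs of these 6 homeoboxes, identity ran from 51.1% (Hoxc6 and Hoxc13) to 68.9% (Hoxc6 and Hoxd8). Over all 39 members, paralogs of the same number in different clusters were the most alike, with a median of 80.6% over 42 pairs (67.2% to 93.9%), against 61.7% over the 172 pairs of 1 cluster and 60.6% over the 527 other pairs. Reads that match several places are left out by the counting.

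**Figure D1:**
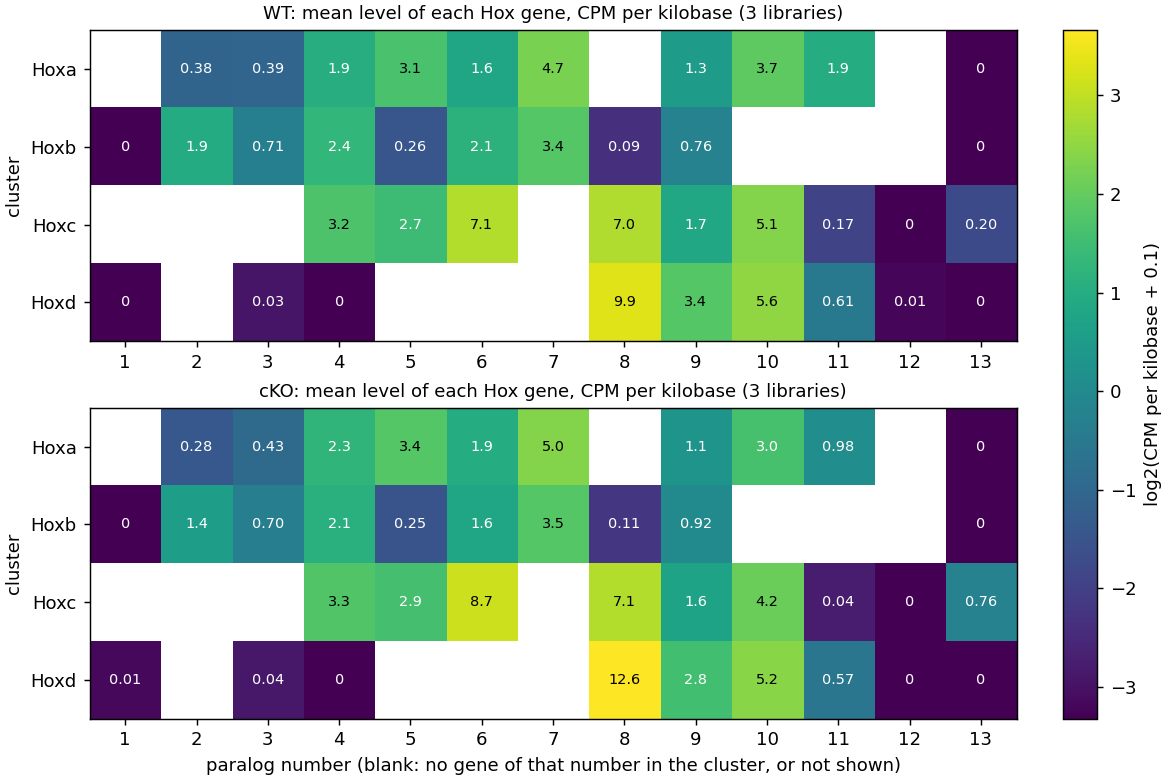
Mean level of 38 of the 39 Hox genes in CPM per kilobase of exon, WT above and cKO below, by cluster (rows) and paralog number (columns); colour is log2(CPM per kilobase + 0.1) and blank cells hold no gene or 1 that is not shown. The levels were highest for Hoxd8, Hoxc6 and Hoxc8 in both groups, and genes of number 12 and 13 were at or near 0 except Hoxc13 in cKO.

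Of the 39 Hox genes, 28 were measured: 10 of 11 in the Hoxa cluster, 7 of 10 in Hoxb, 7 of 9 in Hoxc and 4 of 9 in Hoxd. The 4 clusters together took 0.0192% to 0.0206% of the counts of a library. Per kilobase of exon, so that genes of different length can be compared, the WT order began with Hoxd8 (9.87 ± 0.34 CPM per kilobase, SD, n = 3), Hoxc6 (7.15 ± 0.80), Hoxc8 (7.02 ± 0.41), Hoxd10 (5.58 ± 0.66), Hoxc10 (5.08 ± 0.10) and Hoxa7 (4.67 ± 0.35). These 6 genes made up 50.3% of the summed WT level per kilobase. Hoxc6 and Hoxc8 overlapped between WT libraries and cannot be ordered, and Hoxd8 stood above every other member in each of the 3 libraries.

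The plot of level against position shows that the 3 highest genes of every cluster, over the 6 libraries, had numbers between 4 and 10. Genes at the 5′ end were at or near 0 except Hoxc13 in cKO, at 0.759 CPM per kilobase beside 0.199 in WT. Hoxb1 and Hoxd1, at the 3′ end, were at or near 0 as well. In WT libraries of the Hoxa cluster, Hoxa7 (4.39 to 5.07 CPM per kilobase), Hoxa10 (3.60 to 3.97) and Hoxa5 (2.78 to 3.56) did not overlap one another. Hoxa4, Hoxa11, Hoxa6 and Hoxa9 followed, each overlapping its neighbour, and Hoxa3 (0.312 to 0.427) and Hoxa2 (0.331 to 0.433) overlapped each other at the low end. In the Hoxb cluster, Hoxb7 (3.22 to 3.68) stood above an overlapping series of Hoxb4, Hoxb6 and Hoxb2, which stood above Hoxb9 and Hoxb3, and Hoxb5 came last at 0.210 to 0.307. In the Hoxc cluster only Hoxc6 and Hoxc8 overlapped, and the order went on with Hoxc10, Hoxc4, Hoxc5, Hoxc9 and Hoxc13, none of which overlapped the next. In the Hoxd cluster, Hoxd8, Hoxd10, Hoxd9 and Hoxd11 were fully separated, with Hoxd11 at 0.612 ± 0.039 CPM per kilobase. The order of means in cKO was the same in the Hoxb, Hoxc and Hoxd clusters. In the Hoxa cluster, Hoxa10 (2.43 to 3.38) came after Hoxa5 (2.98 to 3.79), which it overlapped, and Hoxa11 (0.688 to 1.32) came after Hoxa6 and Hoxa9, of which it overlapped Hoxa9 (1.06 to 1.21).

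**Figure D2:**
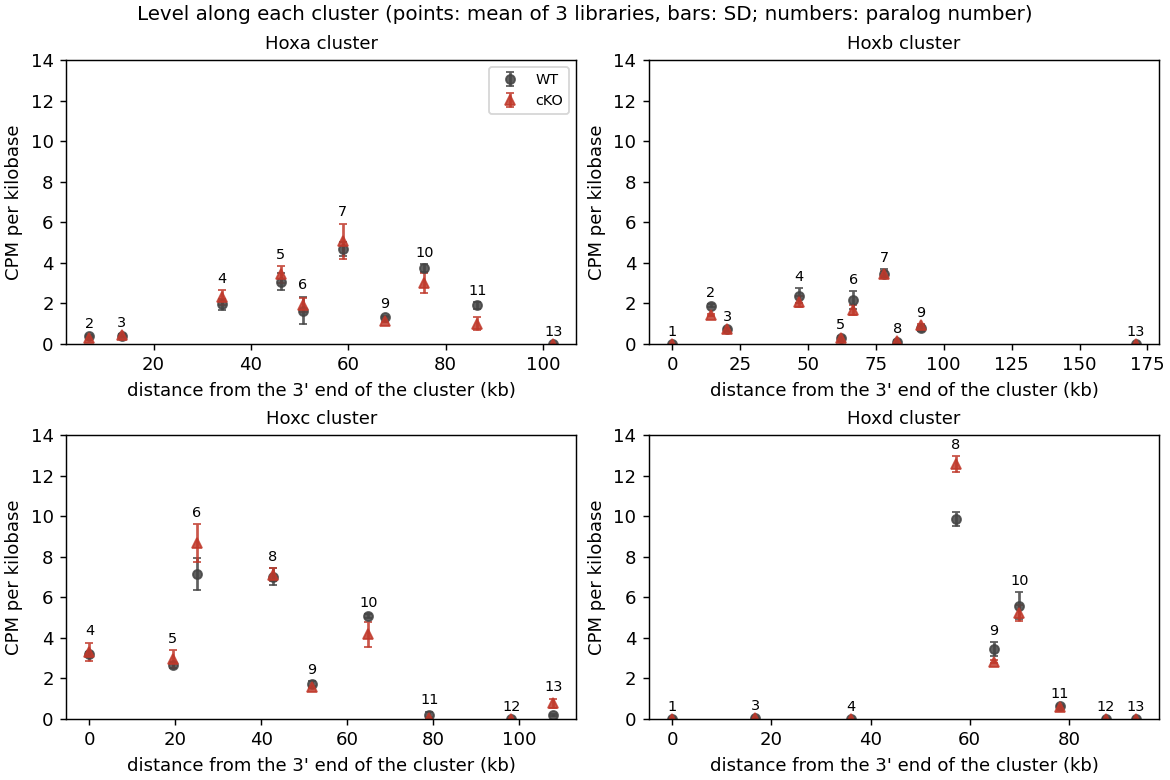
Level of 38 of the 39 Hox genes against distance from the 3′ end of each cluster in kilobases, 1 panel per cluster; circles are WT and triangles cKO means of 3 libraries in CPM per kilobase, bars are SD and numbers are paralog numbers. The highest values belong to Hoxa7, Hoxb7, Hoxc6 with Hoxc8, and Hoxd8, and the 5′ ends lie at or near 0 except for Hoxc13 in cKO.

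Of the 11 members that were not measured, 6 had no count in any library: Hoxa13, Hoxb1, Hoxb13, Hoxc12, Hoxd4 and Hoxd13. For 5 of them a count of 0 allows a level of at most 0.159 to 0.193 CPM, depending on the library. Hoxd4 is different, since 100% of its exon bases are shared with other annotated genes on the same strand (Hoxd3, Gm28230 and ENSMUSG00000115956.1), and reads that fall on several genes are not counted. Its count of 0 is therefore not a measurement of its level, and the same holds in part for Hoxd3, where 62.4% of exon bases are shared. Hoxd3 had 0, 3 and 4 counts in WT and 5, 2 and 1 in cKO. Hoxd1 and Hoxd12 had 1 count each over the 6 libraries.

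Hoxb8 and Hoxc11 were the unmeasured members with most counts. Hoxb8, which lies between the well-measured Hoxb7 and Hoxb9, had 2, 4 and 7 counts in WT and 8, 5 and 3 in cKO. Hoxc11 had 13, 4 and 1 counts in WT and 2, 3 and 0 in cKO, so that most of its counts came from WT replicate 1. On the other side of the threshold stood Hoxa2 with 13, 11 and 11 counts in WT and 11, 8 and 7 in cKO, and Hoxb5 with 13, 16 and 10 in WT and 12, 20 and 6 in cKO. Hoxc13 had 9, 11 and 6 counts in WT and 44, 25 and 28 in cKO, and so would not have been measured from its WT libraries. Other measured members shared little sequence with neighbours on their own strand: 15.0% of exon bases for Hoxa2, 10.8% for Hoxd11 and under 10% for all others.

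To determine whether Hox genes differed between the groups, each was tested within a fit over all genes (edgeR quasi-likelihood F-test, Benjamini-Hochberg adjustment over 15376 genes). Hoxa10, Hoxa11 and Hoxb2 fell in cKO, and Hoxc6, Hoxc13 and Hoxd8 rose. These 6 calls were 21.4% of the 28 measured members, below the 43.7% of all tested genes that were called (21.9% higher, 21.8% lower) and below the 36.6% called among the 9011 genes whose mean lay in the members' range of 0.582 to 30.8 CPM. In 8 of the 28 (28.6%) WT and cKO libraries had separate CPM ranges, against 53.5% of all tested genes. The median log2 fold change of the members was -0.02, beside 0.0016 for all genes, and their median absolute log2 fold change was 0.22, the same as the 0.22 of all genes. With DESeq2 the count was 3 (Hoxa11, Hoxc13 and Hoxd8), and leaving out 1 library gave 4 or 5. These were not always the same genes. Without WT replicate 3, Hoxb6 and Hoxd9 were called, and without cKO replicate 1, Hoxc10 was called. In both of these fits Hoxa10, Hoxb2 and Hoxc6 were not called.

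**Figure D3:**
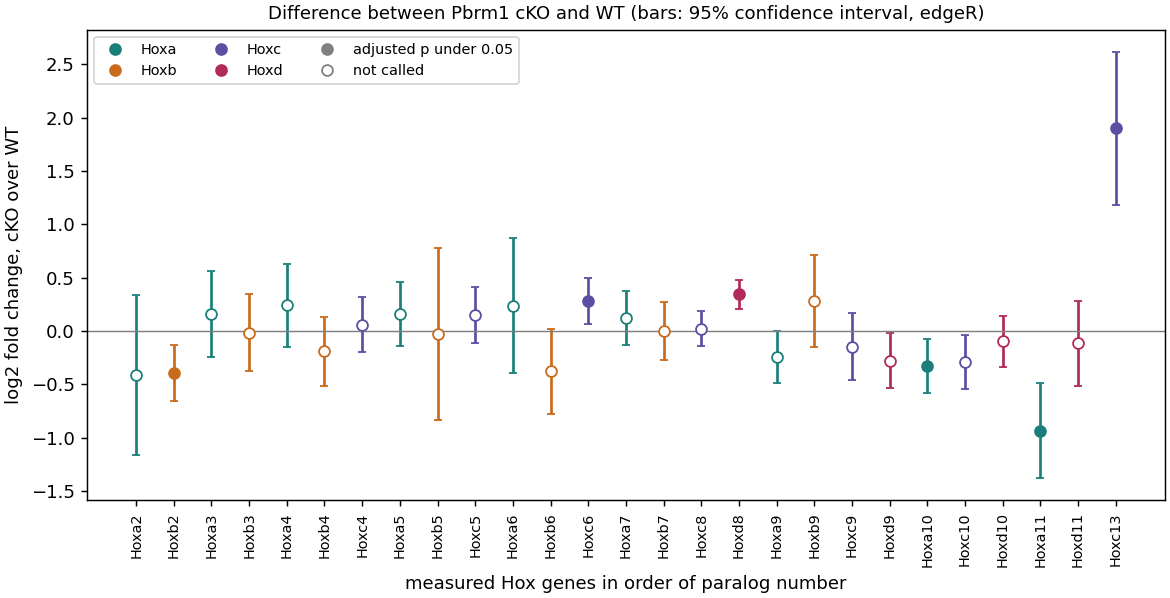
Log2 fold change of cKO over WT for 27 of the 28 measured Hox genes in order of paralog number, coloured by cluster, with 95% confidence intervals from the edgeR fit; filled points passed an adjusted p of 0.05. The genes of number 5 to 8 lie mostly above 0 and those of number 9 to 11 mostly below it, while Hoxc13 stands far above the rest at 1.90.

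Hoxd8 (ENSMUSG00000027102.4; chr2:74704615-74707933, plus strand), a gene of the middle of its cluster used in the trunk of the embryo, was the member with the highest level. It had 26.2, 27.0 and 28.0 CPM in WT and 35.0, 33.2 and 35.1 CPM in cKO. Every cKO library lay above every WT library, by more than the spread within either group (log2 fold change 0.35, SE 0.06, edgeR adjusted p = 0.000575). The call was kept in all 13 alternatives. Its part of the summed Hox CPM was 13.8% in WT and 17.3% in cKO.

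Hoxc13 (ENSMUSG00000001655.6; chr15:102921103-102928814, plus strand), at the 5′ end of the Hoxc cluster, is known for the control of keratin genes in hair follicles and nails. It was at 0.532, 0.588 and 0.351 CPM in WT and at 2.47, 1.33 and 1.80 CPM in cKO. All cKO libraries were above all WT libraries, and cKO replicate 1 was the highest (log2 fold change 1.90, SE 0.33, 95% confidence interval 1.18 to 2.62, edgeR adjusted p = 0.000435). The gene reached 10 counts in only 1 WT library and so was tested because of its cKO libraries, where it is high; with a minimum of 10 counts in every library it was not tested, and it was called in the 12 alternatives that tested it. The other genes numbered 12 and 13 had 0 or 1 count over the 6 libraries, and its neighbour Hoxc12 had 0. The Hoxc13 level per kilobase in cKO, 0.759 ± 0.23 CPM per kilobase, remained below that of the other 6 measured genes of its cluster.

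Hoxa11 (ENSMUSG00000038210.10; chr6:52242106-52245810, minus strand), needed in the uterus for stromal and gland development, had the largest fall. WT libraries were at 4.61, 3.90 and 4.45 CPM and cKO libraries at 1.57, 3.02 and 2.12 CPM. The groups did not overlap, although cKO replicate 2 lay nearer to WT than the others did (log2 fold change -0.93, SE 0.21, edgeR adjusted p = 0.00252, kept in all 13 alternatives). Antisense to it, Hoxa11os covers 35.0% of its exon bases and was at 0.886, 0.749 and 0.703 CPM in WT and 0.394, 0.530 and 0.322 CPM in cKO. These ranges did not overlap either, and the log2 fold change of -0.88 (SE 0.35) did not pass the test (edgeR adjusted p = 0.0586), but did without cKO replicate 2 (adjusted p = 0.047). Hoxa11os had 15, 14 and 12 counts in WT and 7, 10 and 5 in cKO. It was thus tested because of its WT libraries, where it is high. With a minimum of 10 counts in every library it was not tested. The libraries were strand-specific and counted by strand, so the 2 genes have separate counts.

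Hoxa10 (ENSMUSG00000000938.11; chr6:52231197-52240854, minus strand), which gives the uterus its identity along the tract and is needed for implantation, was at 11.8, 13.0 and 11.9 CPM in WT and 10.4, 7.96 and 11.1 CPM in cKO. The groups were separated by a small gap, and cKO replicate 2 was the lowest (log2 fold change -0.33, SE 0.12, edgeR adjusted p = 0.0397). The call was lost with DESeq2, with scaling by library size alone and without WT replicate 1, 2 or 3 or cKO replicate 1 or 2, and without cKO replicate 2 the log2 fold change was -0.19 (adjusted p = 0.143). Hoxa9, the gene of the same cluster associated with the oviduct, was at 7.62, 7.59 and 7.20 CPM in WT and 6.75, 5.89 and 6.37 CPM in cKO. Its groups did not overlap but it was not called (log2 fold change -0.24, SE 0.11, adjusted p = 0.104).

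Hoxb2 (ENSMUSG00000075588.6; chr11:96350525-96354012, plus strand), known for the patterning of the hindbrain, was the only called gene of numbers 1 to 4. It was at 6.44, 6.31 and 6.79 CPM in WT and 4.89, 5.20 and 4.76 CPM in cKO. Every cKO library was below every WT library (log2 fold change -0.39, SE 0.12, edgeR adjusted p = 0.0174). The call was lost with DESeq2 (0.0796) and without WT replicate 3, cKO replicate 1 or cKO replicate 3 (0.0509 to 0.0559).

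Hoxc6 (ENSMUSG00000001661.5; chr15:102998257-103011881, plus strand), used in the thoracic region and the mammary gland, was at 16.4, 19.4 and 15.8 CPM in WT and 22.3, 22.0 and 18.3 CPM in cKO. The groups overlapped, since cKO replicate 3 lay below WT replicate 2 (log2 fold change 0.28, SE 0.10, edgeR adjusted p = 0.0351). The call was lost with DESeq2 (0.0579) and without WT replicate 1 or 3 or cKO replicate 1 or 2 (0.0728 to 0.141).

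**Figure D4:**
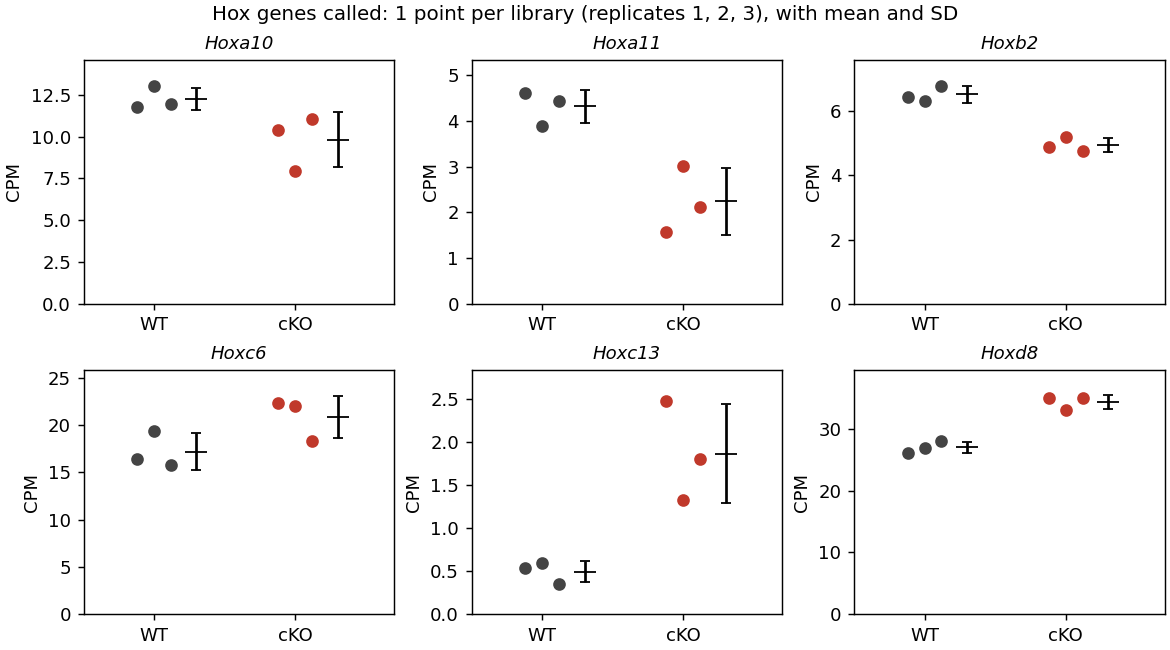
CPM of the 6 called Hox genes, 1 point per library in the order of replicates 1, 2 and 3, with the group mean and SD beside the points; every axis starts at 0. The groups are separated for all but Hoxc6, and the gap is narrow for Hoxa10.

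The other highly expressed members did not pass the test. Hoxa7, a gene of trunk patterning and the highest of its cluster, was at 13.1, 12.6 and 14.6 CPM in WT and 15.1, 16.7 and 11.8 CPM in cKO. Its cKO libraries lay on both sides of all WT libraries (log2 fold change 0.12, 95% confidence interval -0.13 to 0.37). Hoxa5, known for its role in the respiratory tract, was at 5.38, 6.68 and 5.21 CPM in WT and 6.58, 7.11 and 5.60 CPM in cKO (0.16, -0.14 to 0.46).

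In the Hoxb cluster, Hoxb7 was at 5.32, 4.97 and 5.68 CPM in WT and 5.12, 5.46 and 5.40 CPM in cKO. The cKO range lay within the WT range (log2 fold change 0.003, 95% confidence interval -0.27 to 0.27). Hoxb4, best known from blood stem cells, was at 6.97, 5.03 and 6.26 CPM in WT and 5.12, 6.05 and 4.70 CPM in cKO (-0.19, -0.52 to 0.14). Hoxb6 was at 4.31, 5.03 and 3.28 CPM in WT and 3.60, 3.40 and 2.70 CPM in cKO, with WT replicate 3 inside the cKO range. It was not called (log2 fold change -0.38, adjusted p = 0.118) but passed without WT replicate 3 (-0.53, adjusted p = 0.0402).

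Hoxc8, used at the level of the forelimb and chest, was at 19.4, 19.0 and 21.2 CPM in WT and 20.0, 21.2 and 19.3 CPM in cKO. The ranges overlapped almost fully (log2 fold change 0.02, 95% confidence interval -0.14 to 0.19). Hoxc10, which patterns the lumbar region, was at 9.69, 9.52 and 9.89 CPM in WT and 9.33, 7.16 and 7.33 CPM in cKO. All cKO libraries were below all WT libraries, with cKO replicate 1 nearest to them. The difference missed the threshold (log2 fold change -0.29, adjusted p = 0.0644) and passed it without cKO replicate 1 (-0.42, adjusted p = 0.0150).

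Hoxd9 was at 8.04, 7.32 and 6.56 CPM in WT and 6.07, 6.10 and 5.85 CPM in cKO. Its groups did not overlap, but it was not called (log2 fold change -0.28, adjusted p = 0.0740) except without WT replicate 3 (-0.35, adjusted p = 0.0481). Hoxd10, a gene of the lumbar region and hindlimb, was at 11.5, 9.78 and 9.13 CPM in WT and 10.1, 8.75 and 9.52 CPM in cKO (-0.10, 95% confidence interval -0.34 to 0.14). Over the 22 measured members that were not called, log2 fold changes ran from -0.41 (Hoxa2) to 0.28 (Hoxb9). Intervals lay within 0.5 log2 units of 0 in 10 of the 22 and within 1 log2 unit in 21. The exception was Hoxa2, with 11 counts or fewer in each cKO library.

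When the members were taken by number, those of the middle and those of the 5′ side lay on different sides of 0. These bands of numbers were set after the values were seen and carry no test. Of the 10 measured genes numbered 5 to 8, 8 had a log2 fold change above 0 (median 0.14), and 2 were called, both higher, beside 43.7% of all tested genes called and 21.9% called higher. Not all of these signs were stable. Hoxb7 (0.003), Hoxc8 (0.02), Hoxa6 (0.24) and, below 0, Hoxb5 (-0.03) changed sign in 5, 2, 1 and 3 alternatives. Of the 10 measured genes numbered 9 to 13, 2 were above 0 (median -0.19), and 1 was called higher and 2 lower; the groups did not overlap in 6 of the 10, 5 of them lower in cKO, beside 53.5% of all tested genes. Of the 8 measured genes numbered 1 to 4, 3 were above 0 (median -0.08) and 1 was called, lower.

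Summed CPM restates these values per library and is no independent support for them. Genes numbered 5 to 8 together had 102, 105 and 103 CPM in WT and 119, 123 and 108 CPM in cKO, so that no library of 1 group lay within the other. Without Hoxd8, the highest member, these sums were 75.6, 78.4 and 75.3 CPM in WT and 84.3, 89.7 and 72.9 CPM in cKO, and cKO replicate 3 lay below every WT library. Genes numbered 9 to 13 had 63.3, 60.0 and 58.8 CPM in WT and 55.2, 48.7 and 52.9 CPM in cKO, again without overlap. Genes numbered 1 to 4 had 33.8, 30.8 and 31.7 CPM in WT and 29.4, 33.3 and 28.9 CPM in cKO and did overlap. The sum over all 39 genes was 196 ± 2.56 CPM (WT) and 199.6 ± 8.43 CPM (cKO; SD, n = 3), so the total differed by less than the spread between cKO libraries.

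By cluster, 2 of the 10 measured Hoxa genes were called, both lower, 1 of 7 Hoxb genes, lower, 2 of 7 Hoxc genes, both higher, and 1 of 4 Hoxd genes, higher, beside 43.7% of all tested genes (21.9% higher, 21.8% lower). The Hoxa sum was 52.9 ± 0.83 CPM in WT and 49.7 ± 2.57 CPM in cKO, and the Hoxb sum 28.1 ± 1.10 and 25.1 ± 1.77 CPM. The Hoxc sum was 68.2 ± 0.98 and 72.3 ± 5.13 CPM. The Hoxd sum was 47.2 ± 1.05 and 52.5 ± 1.68 CPM, the highest WT library at 48.4 and the lowest cKO library at 50.6, and Hoxd8 differed by more than this sum did, with 27.1 ± 0.94 and 34.5 ± 1.08 CPM. With so few calls per cluster, leaving out 1 library moved these counts. The Hoxa count was 1 without any library but cKO replicate 3, the Hoxb count 0 without cKO replicate 1 or 3, the Hoxc count 1 without WT replicate 1 or 3 or cKO replicate 2, and the Hoxd count 2 without WT replicate 3.

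Hox proteins bind DNA together with homeodomain cofactors of the TALE class, encoded by the Pbx, Meis and Pknox genes. Of 8 tested cofactor genes 6 were called (75.0%, beside 43.7% of all tested genes), 4 higher and 2 lower, and Pbx4 was too low to test. Meis1 was at 61.1, 60.0 and 61.5 CPM in WT and 86.7, 85.6 and 88.8 CPM in cKO, the clearest separation in the family (log2 fold change 0.52, SE 0.05, edgeR adjusted p = 1.5e-06). Meis2 was at 57.0, 51.5 and 51.6 CPM in WT and 67.3, 65.9 and 64.5 CPM in cKO (0.30, SE 0.06, adjusted p = 0.000598). Meis3 went the other way, from 12.9, 11.8 and 11.6 CPM in WT to 7.65, 7.80 and 6.69 CPM in cKO (-0.71, SE 0.10, adjusted p = 0.000107). The 3 Meis genes thus did not move together.

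Pbx3 was at 18.4, 20.4 and 17.7 CPM in WT and 14.3, 17.2 and 14.9 CPM in cKO, without overlap (log2 fold change -0.28, adjusted p = 0.0243). Pknox1 was at 31.6, 29.5 and 29.3 CPM in WT and 34.6, 33.7 and 33.6 CPM in cKO (0.17, adjusted p = 0.0354). Pbx2 (0.06) and Pknox2 (0.11) were not called. The Pknox1 call was lost in 6 of 13 alternatives, DESeq2 among them, and the Pbx3 call in 3, each of which left out 1 library. Without cKO replicate 1 the number of calls was 3, those of the Meis genes.

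**Figure D5:**
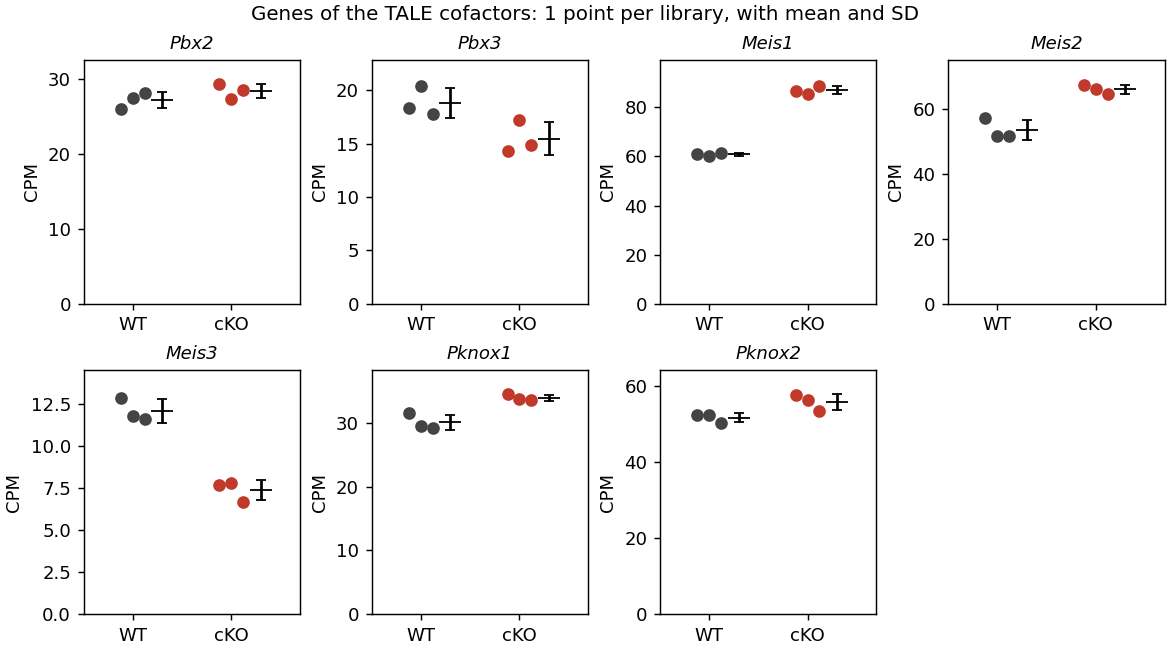
CPM of 7 of the 8 tested TALE cofactor genes, 1 point per library with the group mean and SD beside the points; every axis starts at 0. Meis1 and Meis2 lie higher and Meis3 lower in every cKO library.

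Noncoding genes of the clusters were mostly below the filter. Of 17 listed genes found in the table, 2 were tested (Hoxa11os, above, and Hoxd3os1, log2 fold change 0.22, SE 0.31) and 0 were called by edgeR or DESeq2; 1 of the 2 had an unadjusted p under 0.05. Hotair, Hottip, Halr1 and the microRNA genes Mir10b, Mir196a-2 and Mir196b had no count; these libraries do not measure mature microRNAs. Of all tested genes 43.7% were called, while among the 47 other genes inside the cluster spans 5 were tested and 1 (20%) was called. This was Gm53 (ENSMUSG00000078706.4; chr11:96251105-96264868, plus strand), a long noncoding RNA between Hoxb13 and Hoxb9, singled out after its values were seen. It was at 2.48, 2.46 and 2.11 CPM in WT and 1.63, 0.743 and 1.54 CPM in cKO, without overlap and with cKO replicate 2 the lowest (-0.86, SE 0.27, edgeR adjusted p = 0.0177). The call was lost without WT replicate 1 or 2, and without cKO replicate 2, where the log2 fold change was -0.56.

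Listed genes on either side of the clusters, not all of them next to a cluster, were set beside those inside. Of 14 tested flanking genes 4 were called (28.6%, beside 43.7% of all tested genes), 2 higher and 2 lower. Skap2, which flanks the Hoxa cluster and encodes an adaptor protein of leukocyte signaling, was at 16.7, 17.9 and 19.2 CPM in WT and 30.4, 27.3 and 32.7 CPM in cKO, well separated (log2 fold change 0.74, SE 0.08, edgeR adjusted p = 1.1e-05); all 10 leukocyte markers were also higher in cKO, with a median log2 fold change of 0.78, and their part in it was not tested. Tax1bp1, an autophagy receptor, rose by less (0.15, adjusted p = 0.0103). Hnrnpa1, an RNA-binding protein, and Cbx5, a heterochromatin protein, both on the Hoxc4 side of the Hoxc cluster, fell (-0.27, edgeR adjusted p = 0.00143, and -0.16, adjusted p = 0.0104). Evx1 and Evx2, homeobox genes at the 5′ ends of Hoxa and Hoxd, had 1 and 0 counts.

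Polycomb proteins form complexes that keep silent Hox genes repressed. Of 22 tested Polycomb genes 11 were called, 5 higher and 6 lower, beside 43.7% of all genes. Among subunits and partners of the histone methyltransferase complex PRC2, Ezh2, its catalytic subunit, was at 36.9, 40.2 and 35.5 CPM in WT and 27.6, 29.7 and 26.2 CPM in cKO. Every cKO library was below every WT library (log2 fold change -0.43, SE 0.07, edgeR adjusted p = 0.000255). Suz12 (-0.31), Mtf2 (-0.30), Eed (-0.14) and Phf19 (-0.83) also fell, whereas Phf1 (0.61) and Jarid2 (0.24) rose. Of the PRC1 genes, Cbx2 fell (-0.42), and Phc1 (0.33), Bmi1 (0.20) and Rnf2 (0.15) rose. Of the 13 alternatives, 8 lost the Eed call, 7 that of Rnf2 and 6 that of Jarid2, DESeq2 being among them for each, with adjusted p up to 0.126, 0.133 and 0.214.

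Trithorax proteins and their partners keep active Hox genes on. Of 12 tested genes of this list 6 were called, all lower, beside 43.7% of all tested genes called and 21.8% called lower: Dpy30 (log2 fold change -0.29), Dot1l (-0.24), Ctcf (-0.23), Men1 (-0.18), Kmt2b (-0.16) and Ash2l (-0.15). Ctcf, counted in this list, is not a trithorax protein and divides the clusters into domains. It was at 97.1, 101 and 95.4 CPM in WT and 83.8, 86.3 and 80.2 CPM in cKO, separated in every library (edgeR adjusted p = 0.00179). Kmt2a, the methyltransferase most closely tied to Hox genes, was not called (0.09, SE 0.08, adjusted p = 0.354). The call was lost in 8 of 13 alternatives for Kmt2b, among them DESeq2, limma-voom and scaling by library size alone, in 4 for Men1, DESeq2 included, and, when a library was left out, in 3 for Dot1l and 1 for Ash2l. Without WT replicate 2 or without WT replicate 3 the number of calls was 3.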

How the data were processed

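RNA-seq was available for 3 WT and 3 Pbrm1 cKO libraries, grouped by the genotype in the labels. Whole-number counts of reads for each gene were deposited by the authors, in a single table and without normalization. Per the file headers, featureCounts 1.6.4 assigned reads to GENCODE M18 exons with the strand setting for reverse-stranded libraries, and its defaults leave out reads that match several places or several genes on 1 strand. The submitters' processing notes also name cutadapt, HISAT2 and GRCm38.p5. Symbols came from GENCODE M21 and were found for 54165 of 54232 genes (99.9%), and 38 of the 39 Hox genes had the same start and end there. The number of columns left unassigned was 0.

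The groups were compared with the quasi-likelihood F-test of edgeR 4.0.16 (R 4.3.3), two-sided, after filterByExpr and trimmed-mean (TMM) normalization. Benjamini-Hochberg adjustment covered the 15376 genes tested, at a threshold of 0.05, and the code was tested on simulated data. CPM use the same normalization factors, and CPM per kilobase divide by the exon length in the table. Homeoboxes were found as open windows of 180 bases around the third-helix motif in the longest transcript that held 1. The alternatives were DESeq2 1.42.0, limma-voom (limma 3.58.1), other scalings, filters and thresholds, a replicate block, and each library left out in turn.

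The members and the gene lists were chosen with earlier results of these data known. The naming rule took Pbrm1, every Hox gene (per library where called or among the 3 highest of its cluster per kilobase), and up to 8 called genes of each other list by size of change. Some genes of these lists that were not called are also named, with their values. Values of 1 Hox gene and 1 cofactor gene are not reported here.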

Additional observations from a re-analysis of the deposited data

How the results depend on the processing

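Of 867 values of single named genes under the alternatives, 73 lost the call, 4 gained it and 15 changed sign. All 15 belonged to genes that were not called. Without 1 library each, the log2 fold changes of the 7 genes concerned ran from -0.0062 to 0.59 (Hoxa6), -0.083 to 0.067 (Hoxb3), -0.45 to 0.24 (Hoxb5), -0.046 to 0.052 (Hoxb7), -0.063 to 0.15 (Hoxc4), -0.014 to 0.072 (Hoxc8) and -0.0043 to 0.17 (Kmt2a), and Hoxb7 was also below 0 with upper-quartile scaling (-0.0087) and with no filter (-0.0067).

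The number of Hox genes called was 6 in the fit reported, 3 with DESeq2 and 3 at an adjusted p under 0.01. By cluster, DESeq2 called 1 Hoxa, 0 Hoxb and 1 Hoxc gene, the stricter threshold also 1, 0 and 1, scaling by library size alone 1 Hoxa gene and a minimum of 10 counts in every library 1 Hoxc gene, since Hoxc13 was then not tested. The stricter threshold called 3 TALE cofactors, 2 flanking genes and 2 genes of the trithorax list. Leaving out 1 library gave 1 to 2 Hoxa, 0 to 1 Hoxb, 1 to 2 Hoxc and 1 to 2 Hoxd genes, 3 to 5 TALE cofactors, 0 to 1 noncoding genes and 3 to 7 genes of the trithorax list. Over all genes, 6723 were called in the fit reported, 5535 with DESeq2 and 5492 to 7004 without 1 library. The cause of these differences was not tested, apart from the smaller number of samples or genes where an alternative uses fewer.

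The replicate numbers did not pair the samples: correlations of the deviations of same-numbered libraries from their group means were -0.036, 0.053 and 0.127. A replicate block gave 6908 calls over all genes, of which 6617 were also calls of the fit reported, and the Hox count was 6 as before. Over all genes the median was 0.017 (log2) with library size alone and -0.010 with the upper quartile. Depth limits the low members, among them Hoxa2, Hoxa3, Hoxa6, Hoxb5, Hoxb9, Hoxc13 and Hoxd11, which rest on fewer than 50 counts in every library.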

Other observations

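Genes linked to Hoxa10 in the uterus were taken as a further list, chosen with earlier results of these data known. Of its 7 genes 6 were tested and 5 were called, all lower in cKO, beside 21.8% of all tested genes called lower, and Igfbp1, a decidual product, had no count. The list does not say if Hoxa10 raises or lowers each gene. Whether their levels here depend on Hoxa10 was not tested, and the Hoxa10 call was itself lost in 7 of 13 alternatives. Fkbp4, a cochaperone of the progesterone receptor, was at 301, 309 and 305 CPM in WT and 215, 239 and 214 CPM in cKO (log2 fold change -0.45, SE 0.05, edgeR adjusted p = 7.6e-06). Emx2, a homeobox gene needed for the urogenital tract and a known target of Hoxa10, was at 73.5, 72.3 and 68.6 CPM in WT and 58.9, 57.0 and 49.8 CPM in cKO (-0.37, SE 0.06, adjusted p = 0.000383). In both genes every cKO library was below every WT library. Ptger3, a prostaglandin E receptor (-0.52, SE 0.17, adjusted p = 0.0223), Cdkn1a, a cell cycle inhibitor (-0.26, SE 0.06, adjusted p = 0.00212) and Itgb3, an integrin (-0.24, SE 0.06, adjusted p = 0.00509) also fell, and Ptger4 did not pass the test (0.10, SE 0.08, adjusted p = 0.344). The Ptger3 call was lost with DESeq2, without WT replicate 3 and without cKO replicate 1, with adjusted p up to 0.101.

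The ParaHox genes Cdx1, Cdx2, Cdx4, Gsx1, Gsx2 and Pdx1, relatives of the Hox genes outside the 4 clusters, were not expressed at this depth: Cdx1 had 1 count in 1 cKO library and the others had 0.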
